A study of Arabidopsis thaliana with 12 samples.

Results

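The SNF1-related protein kinases 2 (SnRK2) of Arabidopsis thaliana were followed through an experiment on salt stress. The 10 loci of this kinase family were taken by name from the genome annotation, out of 25405 loci represented on the array. No measured value entered this rule, but earlier results of these data were known when the members were chosen. RNA of whole 10-day-old seedlings was hybridized to 12 single-colour Agilent arrays, 3 for each of 4 groups. All seedlings were of ecotype Landsberg erecta (Ler). They were wild type (WT) or proatcape1, a single T-DNA insertion line in AT4G33730, the gene for the precursor of the peptide AtCAPE1, so that any other difference between this line and its background cannot be told apart from the loss of the gene. The control groups were in half-strength Murashige and Skoog medium with no added salt and are labelled 0 h, and the salt groups were in 125 mM NaCl for 12 h. Salt and the 12 h therefore cannot be told apart in any comparison of salt with control. The 3 samples of a group were biological repeats, and the number of seedlings pooled in a sample of the array experiment is not given in the sources used here.

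Abscisic acid (ABA) accumulates when Arabidopsis loses water. It is bound by the PYR/PYL receptors, which then inhibit the clade A protein phosphatases 2C (PP2C). These phosphatases otherwise keep the SnRK2 kinases inactive, and a kinase released from them phosphorylates bZIP transcription factors of the ABF/AREB group, ion channels of the guard cell and other proteins. The family has 3 subclasses. Subclass III is strongly activated by ABA, subclass II weakly, and most members of subclass I respond to osmotic stress but not to ABA. All of this control acts on the protein, and the arrays measured transcripts only.

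Subclass III held 3 members, SnRK2.2 (AT3G50500), SnRK2.3 (AT5G66880) and OST1 (SnRK2.6, AT4G33950). Subclass II held 2 members, SnRK2.7 (AT4G40010) and SnRK2.8 (AT1G78290). Subclass I held 5 members, SnRK2.1 (AT5G08590), SnRK2.4 (AT1G10940), SnRK2.5 (AT5G63650), SnRK2.9 (AT2G23030) and SnRK2.10 (AT1G60940). The array carried 12 probes for them, 2 each for SnRK2.1 and SnRK2.8 and 1 for each of the others, and the brighter probe stood for its gene. All 10 genes passed the filter on low signals, and all 12 probes were well above background on all 12 arrays. A level is given below as a percentage of the 75th percentile of the signals on the same array. Probes differ in brightness, so levels are compared only between groups for the same probe.

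The labels were checked on the disrupted gene. AT4G33730 was well above background on all 6 wild-type arrays, at 30.8% ± 4.87 in control and 2.24% ± 0.240 under salt (SD, n = 3), and on none of the 6 proatcape1 arrays. Per array, 71.6–78.6% of the spots other than control spots were well above background by the scanner software's own measure, and none of these spots was saturated. The 4 leaf markers (RBCS1A, LHCB1.1, LHCB2.1 and RCA) were well above background on all arrays, and their summed level lay between 46573% and 60077%. The 4 root markers summed to 1137–1481% in the controls and to 319–521% under salt. The 4 guard cell markers summed to 1499–1717% in the controls and to 238–589% under salt, and all 8 root and guard cell markers passed the test as lower under salt in both genotypes. Of all genes, 21.8% passed as lower under salt in wild type and 26.2% in proatcape1. The 4 flower and pollen markers stayed at or below 25.1% in sum. The 4 seed markers reached at most 81.9% in sum, on an array of the proatcape1 control, and 3 of them were not well above background on any wild-type control array. In RNA of whole seedlings, fewer cells of a type and less RNA per cell cannot be told apart, and the part that such shifts had in the results for the kinases was not tested.

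Salt changed the transcripts of 5 of the 10 kinases in wild type. OST1 rose 2.99-fold, SnRK2.7 rose 3.55-fold and SnRK2.8 rose 2.45-fold, whereas SnRK2.2 fell by a factor of 2.63 and SnRK2.9 by a factor of 1.93. A gene passed the test at an adjusted p of at most 0.05 with a change over 1.5-fold, in one limma model of the 4 groups with Benjamini-Hochberg adjustment over the 19027 genes tested. By the same rule 39.3% of all genes passed in this comparison, 17.5% as higher and 21.8% as lower under salt, so that 5 of 10 is close to the share over the whole array. The median change of the 10 kinases was -0.03 on the log2 scale, and that of all genes was -0.11. In 8 of the 10 kinases the 3 salt arrays did not overlap with the 3 control arrays, which was so for 81% of all genes. At an adjusted p of at most 0.05 alone, whatever the fold, 8 of the 10 kinases and 78.7% of all genes were called.

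In proatcape1, 6 of the 10 kinases changed under salt. The same 3 rose, OST1 by 3.80-fold, SnRK2.7 by 6.17-fold and SnRK2.8 by 2.36-fold. SnRK2.2 fell by a factor of 2.57, SnRK2.3 by 1.60 and SnRK2.9 by 1.58. Over all genes 45.8% passed here, 19.6% as higher and 26.2% as lower. The median change was 0.02 for the kinases and -0.13 for all genes. The groups did not overlap for 9 of the 10 kinases and for 84.8% of all genes. At the adjusted p alone, 9 of the 10 kinases and 82.4% of all genes were called.

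**Figure D1:**
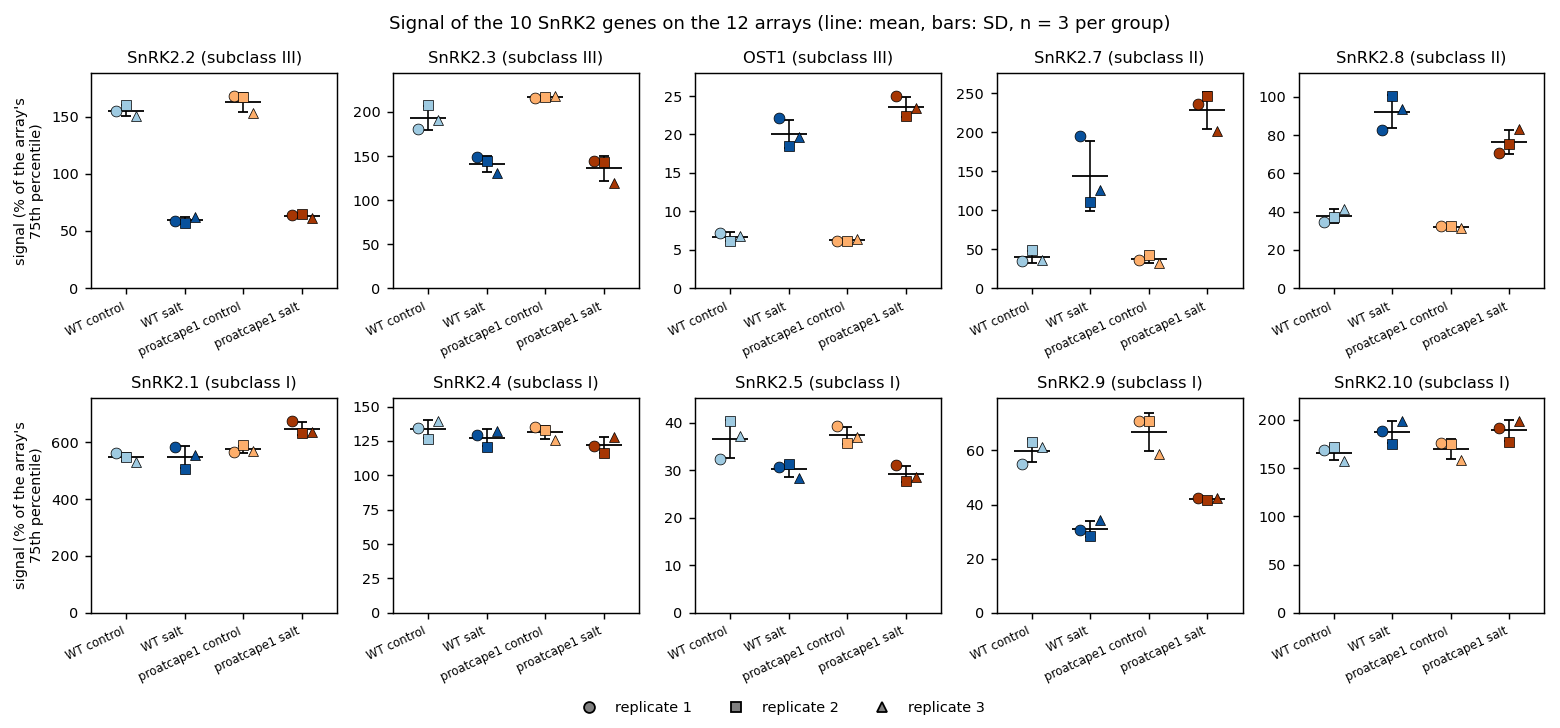
Level of each of the 10 SnRK2 genes on every array, as a percentage of the 75th percentile of the array's signals, for the 4 groups, with 1 point per array, a line at the mean and bars for the SD. OST1, SnRK2.7 and SnRK2.8 are higher on every salt array than on any control array, SnRK2.2 and SnRK2.9 are lower on every salt array, and the groups of SnRK2.4 overlap.

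OST1, SnRK2.2 and SnRK2.3 are the kinases most strongly activated by ABA, and their transcripts moved in opposite directions. OST1 is known for closing stomata from within guard cells. Its level in wild type was 7.24%, 6.14% and 6.76% on the control arrays and 22.1%, 18.5% and 19.6% under salt, with means of 6.71% ± 0.551 and 20.1% ± 1.82 (SD, n = 3). In proatcape1 the control arrays gave 6.13%, 6.08% and 6.41%, and the salt arrays 25.0%, 22.4% and 23.5%. Every salt array was higher than every control array of either genotype. The log2 change was 1.58 (SE 0.08, adjusted p = 1.65e-08) in wild type and 1.93 (SE 0.08, adjusted p = 2.93e-09) in proatcape1. OST1 rose while each of the 4 guard cell markers fell under salt. MYB60, a transcription factor of guard cells, for example, fell from a mean of 107.7% to 47.7% in wild type and from 108.5% to 39.7% in proatcape1.

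SnRK2.2 acts together with SnRK2.3 in the ABA responses of seeds and seedlings, such as arrest of germination and of root growth. SnRK2.2 was at 155%, 160% and 151% on the wild-type control arrays and at 58.9%, 56.7% and 62.0% under salt. In proatcape1 it was at 168%, 167% and 153% in control and at 64.4%, 64.8% and 61.0% under salt. Both genotypes thus lay in the same pair of ranges, one for control and one for salt, far apart from each other. The log2 change was -1.39 (SE 0.05, adjusted p = 2.67e-09) in wild type and -1.36 (SE 0.05, adjusted p = 2.20e-09) in proatcape1. Among all genes tested, SnRK2.2 lay at the 5.02 percentile of changes in wild type and OST1 at the 93.4 percentile.

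SnRK2.3 was lower under salt as well, by less. Its wild-type level was 181%, 208% and 191% in control and 148%, 144% and 131% under salt, and in proatcape1 it was 216%, 217% and 218% in control and 145%, 144% and 119% under salt. The log2 change in wild type was -0.45 (SE 0.08, adjusted p = 0.000369), below the 1.5-fold limit, and in proatcape1 it was -0.68 (SE 0.08, adjusted p = 1.31e-05), above it. The difference between these changes was -0.23 (SE 0.11, adjusted p = 0.228) and did not pass, so that SnRK2.3 was not shown to respond differently in the mutant. The control level in proatcape1 stood above that in wild type on every array, by 0.17 on the log2 scale (adjusted p = 0.281).

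A ratio of a pair of genes on one array does not depend on how arrays are scaled to each other. The log2 ratio of OST1 to SnRK2.2 rose by 3.01, 3.09 and 2.82 on the 3 slides in wild type and by 3.41, 3.25 and 3.20 in proatcape1. Their balance thus shifted 7.86-fold and 9.75-fold, respectively. The ratio of OST1 to SnRK2.3 shifted by 2.03 ± 0.12 in wild type and 2.61 ± 0.13 in proatcape1 (SD over 3 slides, log2 scale). These ratios show that the members changed unequally.

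SnRK2.7 and SnRK2.8, the weakly ABA-activated kinases of subclass II, both rose under salt in both genotypes. SnRK2.7 was at 35.1%, 48.6% and 35.6% in wild-type controls and at 195%, 111% and 126% under salt. In proatcape1 it was at 36.4%, 42.5% and 32.2% in control and at 236%, 246% and 201% under salt. The wild-type salt group was the most scattered of the whole family, with a mean of 144% ± 45.1 (SD, n = 3), and its first array lay just under the lowest mutant array. The log2 change was 1.83 (SE 0.20, adjusted p = 9.45e-06) in wild type and 2.63 (SE 0.20, adjusted p = 3.89e-07) in proatcape1. On the 3 slides, each of which held 1 array of every group, the change was 2.47, 1.19 and 1.82 in wild type and 2.7, 2.53 and 2.64 in proatcape1.

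SnRK2.8 is known from Arabidopsis for drought tolerance, growth and the phosphorylation of the immune regulator NPR1. It was at 34.5%, 37.0% and 41.4% in wild-type controls and at 82.9%, 100.3% and 93.7% under salt. In proatcape1 it was at 32.3%, 32.7% and 31.6% in control and at 70.4%, 75.4% and 82.9% under salt. Here the salt arrays of the mutant were on average lower than those of wild type, the reverse of SnRK2.7, and both groups met at 82.9%. The log2 change was 1.29 (SE 0.09, adjusted p = 1.80e-07) in wild type and 1.24 (SE 0.09, adjusted p = 1.72e-07) in proatcape1. The second, dimmer probe of SnRK2.8 gave 1.31 (SE 0.07) and 1.19 (SE 0.07) when each probe was fitted by itself, so both probes of this gene showed the same rise.

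The log2 ratio of SnRK2.7 to SnRK2.8 shifted with salt by 1.57, 1.33 and 1.25 on the 3 slides in proatcape1. In wild type it shifted by 1.21, -0.25 and 0.64, with a mean of 0.53 ± 0.74 (SD), and the slides did not share a direction.

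**Figure D2:**
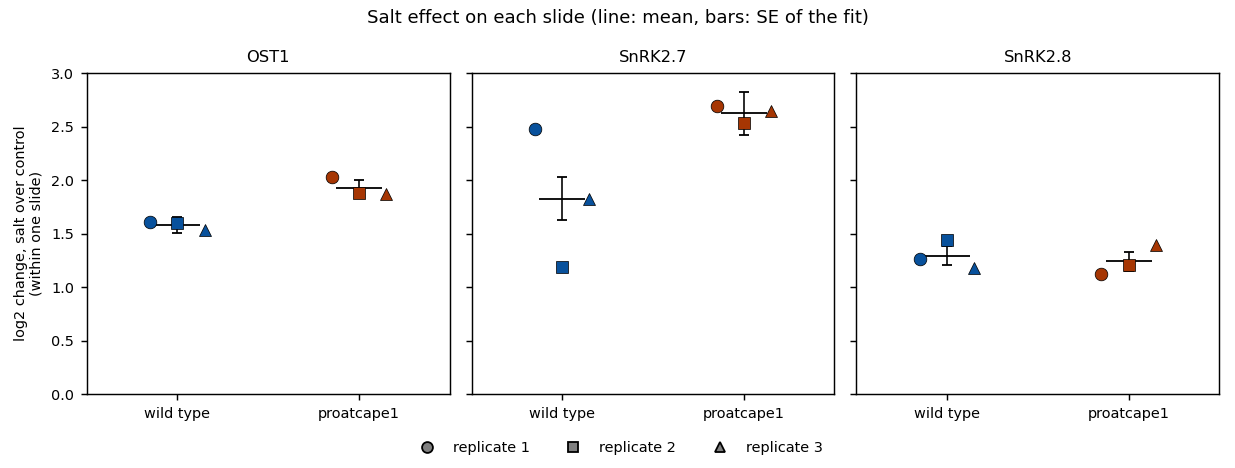
Log2 change of OST1, SnRK2.7 and SnRK2.8 with salt on each of the 3 slides, in wild type and proatcape1, with a line at the mean and bars for the SE of the fit. The changes of OST1 and SnRK2.8 lie close together, and that of SnRK2.7 in wild type runs from 1.19 to 2.47.

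Among the 5 members of subclass I, SnRK2.9 alone passed the test. SnRK2.9 is the member of its subclass that is known not to be activated by osmotic stress. It was at 55.1%, 63.2% and 61.1% in wild-type controls and at 30.5%, 28.6% and 34.3% under salt, and in proatcape1 at 70.9%, 70.8% and 58.7% in control and at 42.5%, 41.7% and 42.5% under salt. Both salt groups lay below both control groups, and the mutant salt arrays lay above the wild-type ones. The log2 change was -0.95 (SE 0.09, adjusted p = 2.29e-06) in wild type and -0.66 (SE 0.09, adjusted p = 3.49e-05) in proatcape1.

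The other 4 members of subclass I, SnRK2.1, SnRK2.4, SnRK2.5 and SnRK2.10, are activated by salt and other osmotic stress as proteins, and SnRK2.4 and SnRK2.10 act in root growth under salt. Their transcripts changed by less than 1.5-fold in both genotypes. SnRK2.4 went from 134% ± 6.46 to 127% ± 6.22 in wild type and from 131% ± 4.66 to 122% ± 5.79 in proatcape1 (SD, n = 3), and the groups overlapped. Its log2 change was -0.07 (95% confidence interval -0.20 to 0.05) in wild type and -0.11 (-0.23 to 0.02) in proatcape1. A change of 1.5-fold lay outside these intervals.

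SnRK2.5 was at 36.7% ± 4.05 in wild-type controls and 30.2% ± 1.52 under salt, and at 37.4% ± 1.79 and 29.2% ± 1.71 in proatcape1. Its log2 changes of -0.27 (adjusted p = 0.00887) and -0.36 (adjusted p = 0.00168) had an adjusted p below 0.05 but were below the fold limit. SnRK2.10 was higher under salt, at 166% ± 7.94 and 187% ± 11.8 in wild type and at 170% ± 9.98 and 189% ± 11 in proatcape1, with log2 changes of 0.17 (adjusted p = 0.0341) and 0.16 (adjusted p = 0.0485). In each genotype the 3 salt arrays lay below the 3 control arrays for SnRK2.5 and above them for SnRK2.10, by little.

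SnRK2.1 was at 561%, 547% and 532% in wild-type controls and at 584%, 505% and 554% under salt, which gave a log2 change of 0.00 (95% confidence interval -0.12 to 0.12). In proatcape1 it was at 565%, 589% and 569% in control and at 674%, 632% and 637% under salt, a log2 change of 0.17 (adjusted p = 0.0133). The mutant salt arrays were thus the highest of the 12. The second probe of SnRK2.1 gave -0.10 (SE 0.06) in wild type and -0.03 (SE 0.06) in proatcape1, and did not share the mutant's shift.

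**Figure D3:**
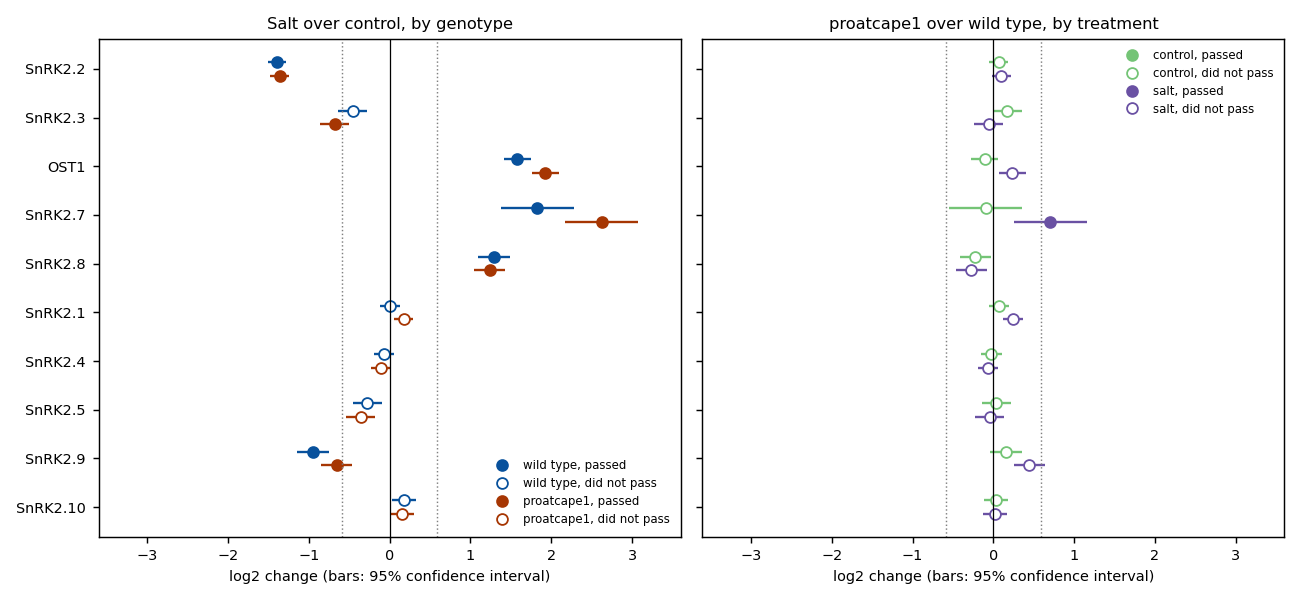
Log2 change of each SnRK2 gene, with its 95% confidence interval, for salt over control in each genotype (left) and for proatcape1 over wild type in each treatment (right). Filled points passed the test, and dotted lines mark 1.5-fold. On the right, SnRK2.7 under salt is the point that passed.

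In control medium, none of the 10 kinases passed the test between proatcape1 and wild type. By limma 1 of the 10 had an unadjusted p under 0.05, SnRK2.8, which was lower in proatcape1 by 0.22 on the log2 scale (SE 0.09, adjusted p = 0.178), against 20% of all genes. A test of each gene alone, without moderation of the variances, also called 0. At the adjusted p alone, 0 of the 10 kinases and 5.76% of all genes were called. Over all genes 2.12% passed, 0.967% as higher and 1.16% as lower in the mutant. The log2 differences of the kinases ran from -0.22 to 0.17, with a median of 0.03 against 0.00 for all genes. Groups did not overlap for 3 of the 10 kinases, SnRK2.1, SnRK2.3 and SnRK2.8, and for 25.9% of all genes. The confidence intervals together spanned -0.55 to 0.36, the widest being that of SnRK2.7, and 1.5-fold lay outside each of them.

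Under salt, SnRK2.7 was higher in proatcape1 by 0.70 on the log2 scale, or 1.63-fold (SE 0.20, adjusted p = 0.0237, limma), and was the only kinase to pass. The summed leaf and root markers also differed between these groups. The leaf markers summed to 49865–50683% in wild type and 54835–60077% in proatcape1, and the root markers to 319–399% and 492–521%. All 4 leaf markers were higher in the mutant, by 0.17 to 0.39 (adjusted p 0.00316 to 0.0408), below the fold limit. Of the 4 root markers 1 passed as higher, the phosphate transporter PHT1;1, by 0.64 (adjusted p = 0.00191). The other 3 root markers were at -0.17 to 0.08 and did not pass. The 4 guard cell markers were at -0.27 to 0.22, and none of them passed. The part of these markers in the differences of the kinases under salt was not tested. Over all genes 4.66% passed, 2.71% as higher and 1.95% as lower in the mutant. The difference was in the same direction on all 3 slides, at 0.27, 1.15 and 0.68. It passed by a narrow margin: without the second wild-type salt array it was 0.53 (adjusted p = 0.0953), without the third 0.63 (0.0754), without the first mutant salt array 0.67 (0.0660) and without the second 0.64 (0.0707). Without the first wild-type salt array it was 0.94 (adjusted p = 0.00269).

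A further 4 kinases had an adjusted p of at most 0.05 under salt with differences below the fold limit. With SnRK2.7 this made 5 of 10 at that adjusted p, against 34% of all genes. SnRK2.9 was higher in proatcape1 by 0.45 (SE 0.09, adjusted p = 0.00490), SnRK2.1 by 0.24 (SE 0.06, adjusted p = 0.00894) and OST1 by 0.24 (SE 0.08, adjusted p = 0.0377). SnRK2.8 was lower by 0.27 (SE 0.09, adjusted p = 0.0339). For SnRK2.1 the second probe gave 0.16 (SE 0.06, adjusted p = 0.0607), and for SnRK2.8 the second probe gave -0.25 (SE 0.07, adjusted p = 0.0258). Groups did not overlap for OST1, SnRK2.1, SnRK2.7 and SnRK2.9, 4 of the 10, and for 48.7% of all genes. The remaining 5 kinases differed by -0.06 to 0.10.

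Whether the change with salt differed between the genotypes was tested by the interaction, which subtracts the log2 change in wild type from that in proatcape1. Salt and the 12 h cannot be told apart in it. None of the 10 kinases passed, against 2.56% of all genes, 1.27% with a more positive and 1.29% with a more negative change in the mutant. By limma, 3 of the 10 had an unadjusted p under 0.05, close to the 27.3% of all genes. SnRK2.7 gave 0.80 (SE 0.29, adjusted p = 0.109), OST1 gave 0.35 (SE 0.11, adjusted p = 0.0768) and SnRK2.9 gave 0.29 (SE 0.12, adjusted p = 0.164), each positive on all 3 slides. For SnRK2.7 the 95% confidence interval was 0.16 to 1.44, and without the first wild-type salt array the value was 1.04 and passed (adjusted p = 0.0178). The interaction of SnRK2.2 was 0.03, with a confidence interval of -0.13 to 0.20, and that of SnRK2.8 was -0.05 (-0.32 to 0.22).

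The 4 groups were ordered by level for each kinase. For OST1 and SnRK2.7 the order was control of either genotype, overlapping, then wild-type salt, then mutant salt, with no overlap between neighbours after the controls. For SnRK2.8 it was mutant control, wild-type control, mutant salt and wild-type salt, where only the salt groups overlapped. For SnRK2.2 the salt groups overlapped at the bottom and the control groups at the top. For SnRK2.3 the salt groups overlapped at the bottom, and the wild-type and mutant controls followed without overlap. For SnRK2.9 the order was wild-type salt, mutant salt and the controls, and only the controls overlapped. For SnRK2.5 the salt groups overlapped at the bottom and the control groups at the top, and for SnRK2.1 wild-type salt overlapped with both controls, which did not overlap with each other, and mutant salt lay above all of them. In SnRK2.4 and SnRK2.10 every neighbouring pair overlapped.

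The receptors, phosphatases and substrates around the kinases gave the setting of these changes. Of the 63 genes tested on 7 lists of related genes, 32 passed with salt in wild type and 30 in proatcape1. Over all genes these shares were 39.3% and 45.8%. Between genotypes 3 of the 63 passed in control and 6 under salt, against 2.12% and 4.66% of all genes. Of the 14 PYR/PYL receptors, 9 were tested. Salt lowered 6 of them and raised 1 in wild type, and lowered 6 in proatcape1, with median log2 changes of -1.37 and -1.19. The log2 change of PYL6 was -5.58 in wild type and -5.87 in proatcape1, and that of PYL4 was -3.18 and -3.28. PYL6 passed the filter on low signals only through the control groups, so its fall is not independent of that filter. Its level under salt was 3.57% in wild type and 2.11% in proatcape1. PYL2 rose by 0.62 in wild type and was at 0.25 in proatcape1, where it did not pass. Between genotypes, PYL5 was lower in proatcape1 by 0.61 in control (adjusted p = 0.0124) and PYL6 by 0.74 under salt (adjusted p = 0.00222).

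All 8 clade A PP2C phosphatases tested, of 9 listed, rose with salt in both genotypes, with median log2 changes of 3.35 in wild type and 3.75 in proatcape1. HAI2 and HAI3 passed the filter on low signals only through the salt groups. Their levels were 0.43% and 0.73% in the wild-type control and 1.22% and 1.04% in the proatcape1 control. Their rise is therefore not independent of the filter, and the count of 8 and the medians include them. Among the 8 were ABI1 and HAB1, which dephosphorylate SnRK2 kinases. ABI1 rose by 2.56 in wild type and 2.83 in proatcape1, and HAB1 by 3.62 and 3.98. HAI1 rose by 7.18 and 7.35. The measured changes of HAI3, 7.37 and 7.49, are less exact, since it was well above background on only 1 of the 3 wild-type control arrays and 2 of the 3 mutant control arrays. HAI2 was not well above background on any wild-type control array. Its rise in wild type was at least 133-fold, taken against the lowest signal well above background on each array. The measured change was 7.77 (adjusted p = 6.16e-10, limma), and the bound itself was not tested. In proatcape1 HAI2 rose by 7.01. Between genotypes, 2 phosphatases were higher in the proatcape1 control, HAI1 by 0.73 (adjusted p = 0.0406) and HAI2 by at least 1.73-fold. The measured difference of HAI2 in control was 1.499 on the log2 scale (adjusted p = 0.00490, limma), and this bound was not tested either. Under salt 3 were higher in proatcape1, HAI1 by 0.89 (adjusted p = 0.00497), HAI2 by 0.74 (adjusted p = 0.0324) and PP2CA by 0.62 (adjusted p = 0.00246).

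Of 13 Raf-like kinases listed as acting upstream of SnRK2 proteins, 11 were tested. In each genotype 3 rose and 8 did not pass, with median changes of 0.21 and 0.20. SIS8 (AT1G73660) was one of the 3, at 0.96 in wild type and 1.13 in proatcape1, and the others were the loci AT5G57610, at 1.88 and 2.04, and AT4G24480, at 1.77 and 1.67. Of 6 other modulators of SnRK2 activity or stability, 2 rose and 4 did not pass in each genotype, with median changes of 0.02 and 0.10. PP2-B11, an F-box protein that acts on SnRK2.3, rose by 2.07 and 2.38, and the locus AT4G38810 by 1.26 and 1.32. BIN2, a kinase that phosphorylates SnRK2.2 and SnRK2.3, was at -0.19 and -0.26 (adjusted p = 0.00507 and 0.000504, limma), below the fold limit.

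Of the 9 bZIP transcription factors that SnRK2 kinases phosphorylate, 7 were tested, and 4 rose and 1 fell in each genotype, with medians of 0.75 and 1.16. AREB1 rose by 2.76 in wild type and 3.18 in proatcape1 and ABF3 by 2.62 and 3.04, while ABF1 was at -1.57 and -1.73. Under salt, AREB1 was higher in proatcape1 by 0.64 (adjusted p = 0.00302) and ABI5, which acts in germination, by 0.68 (adjusted p = 0.00509). Of 16 other substrates, all tested, 5 rose and 1 fell in wild type and 4 rose and 1 fell in proatcape1, with medians of 0.13 and -0.01. These counts were not above the shares over all genes, 39.3% and 45.8%. AKS1, a bHLH factor of guard cells, rose by 3.21 and 3.33, the aquaporin PIP2;1 by 1.60 and 1.78, and the sugar transporter SWEET12 was at -2.02 and -1.90. The guard cell anion channel SLAC1, opened by OST1, was at -0.41 and -0.36 (adjusted p = 0.000618 and 0.00133, limma), below the fold limit. Between genotypes SLAC1 was higher in proatcape1 by 0.45 in control (adjusted p = 0.00981) and by 0.49 under salt (adjusted p = 0.00190). Both differences were below the fold limit.

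The related SnRK1 complex, which senses energy status rather than ABA, served as a comparison. Of its 7 listed subunits 6 were tested, and 1 changed, AKINBETA1, which was at -0.65 in wild type and -0.67 in proatcape1. The catalytic subunit KIN10 was at 0.20 and 0.43 (adjusted p = 0.0222 and 0.000153, limma), below the fold limit. KIN11 was at 0.04 and 0.07 (adjusted p = 0.423 and 0.143) and did not pass. Of the 39 tested genes of the Raf-like, modulator, other-substrate and SnRK1 lists, 12 passed with salt in wild type and 11 in proatcape1. These shares were below the 39.3% and 45.8% of all genes. None of the 39 passed between genotypes by limma, against 2.12% of all genes in control and 4.66% under salt. Of the 39, 8 in control and 11 under salt had an unadjusted p under 0.05, against 20% and 45.2% of all genes. Of the 63 genes tested on the 7 lists, 0 passed for the interaction by limma and 11 had an unadjusted p under 0.05, against 27.3% of all genes. Only the bZIP factor ABF4 among the 63 had an adjusted p of at most 0.05 for it. Its interaction was 0.42 (adjusted p = 0.0418, limma), below the fold limit.

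**Figure D4:**
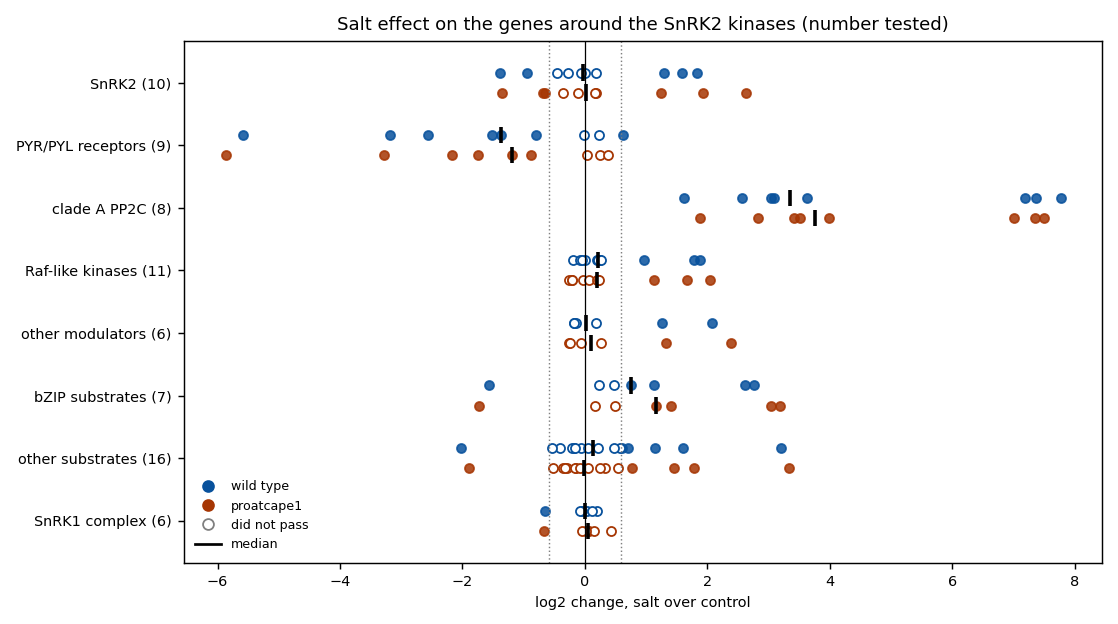
Log2 change with salt of each tested gene in the SnRK2 family and 7 lists of related genes, in wild type (upper row of each list) and proatcape1 (lower row), with a line at the median; filled points passed the test and dotted lines mark 1.5-fold. All 8 PP2C genes lie to the right and 6 of 9 receptors to the left, and HAI2 in wild type is drawn at its measured value of 7.77.

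The 3 kinases with the widest range of group means, SnRK2.7, OST1 and SnRK2.8, were compared with all other tested genes by Pearson's r of the log2 level over the 12 arrays. The arrays fall into salt and control, so that r is high for any gene that responds to salt alike. It is given as a description, since all genes share the same arrays, and the values after removal of the group means come from the arrays by which the genes were chosen. OST1 was most like LTI65 (AT5G52300, also RD29B), a classic ABA-responsive gene, with r of 0.998 over the 12 arrays and 0.936 after the group means were removed. LTI65 rose by 3.90 in wild type and 4.69 in proatcape1. Next were AT5G63130 and ABCB26, both also at 0.998 over the 12 arrays and at 0.802 and 0.806 within groups. SnRK2.7 was most like ZW9 (AT1G58270), ATG18H and AT3G48195, with r of 0.996, 0.996 and 0.995, and 0.926, 0.947 and 0.894 within groups. The nearest to SnRK2.8 were AT1G55960, AT1G60730 and SEC1A, at 0.995, 0.994 and 0.994, and at 0.803, 0.739 and 0.706 within groups.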

How the data were processed

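Cy3-labelled cRNA from each sample went onto 1 Agilent 44k array for Arabidopsis. The authors read them with Feature Extraction, and the deposited scanner files give a processed signal, an intensity on a linear scale after background correction within the array. The deposited log2 values, normalized by the authors, equal log2 signal relative to the array's 75th percentile minus the median of the wild-type controls for each probe (SD of the difference at most 0.00565), and were used as an alternative. Here log2 of the processed signal relative to that percentile was computed. Control spots and outlier flags were left out, spots of a probe were averaged, and probes were kept with a signal over 100 and a coefficient of variation under 50% on all 3 arrays of a group, the quality limits of the methods. Of 43603 probes, 34306 had a locus through RefSeq and 28833 passed. The brightest probe stood for each of 19027 genes. Limma 3.58.1 (R 4.3.3) fitted the 4 groups without a block, with other steps in Python 3.11.15, numpy 2.4.6, pandas 2.3.3 and matplotlib 3.10.9. The scripts were tested on simulated data. The array design's own coordinates are of an older build, so none are given. The number of arrays limits the precision. Deviations from the group means of same-numbered arrays, which shared a slide, correlated by 0.24 to 0.37 between the salt groups, so there the numbers pair the arrays. Between the control groups they correlated by 0.09 to 0.30, against -0.23 to 0.05 for arrays of different numbers, so the numbers separate the pairs there as well. In every remaining pair of groups at least 1 correlation of same-numbered arrays was under 0.1. The limma p-values rest on the spread between repeats within the groups, shared over all 4 groups and moderated across genes. They do not rest on the spread of the compared groups alone.

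All 10 family members and all their probes were named. Of each other list, up to 2 genes with the largest rise and 2 with the largest fall that passed were named, besides any that passed between genotypes. ABI1, HAB1, ABF4, SIS8, BIN2, SLAC1, KIN10, KIN11 and MYB60 were named outside that rule after their values were seen. Markers were well above background where the scanner software says so. The members and lists were chosen with earlier results of these data known. Alternatives were background correction, scaling, probe filter, probe choice, groups in the fit, variance model, replicate and scan-day blocks, Student's t-test, the fold limit, and leaving out each array.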

Additional observations from a re-analysis of the deposited data

How the results depend on the processing

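No change of a kinase that had passed reversed its direction under any alternative. The number of kinases called stayed at 5 for salt in wild type, 6 for salt in proatcape1 and 0 for the genotype in control under all 27 alternatives other than dropping the fold limit. Without the fold limit it was 8, 9 and 0, and 5 for the genotype under salt, beside 78.7%, 82.4%, 5.76% and 34% of all genes. The single call between genotypes under salt, SnRK2.7, was lost (0 called) by Student's t-test of each gene (unadjusted p = 0.0558) and with only the 2 slides scanned on the first day, an alternative added after the data were seen (0.71 on the log2 scale, adjusted p = 0.132). Over the arrays left out in turn, the count ran from 0 to 1 for the genotype under salt, and from 0 to 1 for the interaction. The adjusted p of SnRK2.7 under salt ran from 0.00269 to 0.132 over its alternatives. The salt effects on OST1, SnRK2.2, SnRK2.7, SnRK2.8 and SnRK2.9 passed in both genotypes under each alternative run. The size of the OST1 effect varied among them. Over the alternatives other than leaving out arrays, its log2 change ran from 1.25 to 1.60 in wild type. The 1.25 came with the alternative background correction. In proatcape1 the range was 1.45 to 1.95, and for the interaction of OST1 it was 0.19 to 0.39.

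Arrays of one replicate number shared a slide. Deviations from the group means correlated between same-numbered arrays by -0.20 to 0.37, with 6 of 18 pairs over 0.1. With the replicate block in the fit of all groups no call changed. The counts were 5, 6, 0, 1 and 0 for salt in wild type, salt in proatcape1, genotype in control, genotype under salt and the interaction. Of all genes, 3326 rose and 4149 fell with salt in wild type, and 3732 and 4995 in proatcape1. In the mutant 165 were higher and 196 lower in control, and 521 and 371 under salt. For the interaction 246 were more positive and 253 more negative. With only both compared groups and the block, an alternative added after the data were seen, the counts were 5, 6, 0 and 1, and SnRK2.7 under salt was at 0.70 and passed.

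The 3 arrays per group limit what could be seen: the confidence interval of SnRK2.7 was 0.90 wide on the log2 scale, the widest of the family. The dimmest kinase, OST1, had signals of 127 to 537, above the limit of 100 on every array.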
